A study of Mus musculus with 6 samples.

Results

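Transcripts of 10 genes that ERK signaling switches on and whose products mostly dampen it were examined in RNA-seq libraries from mouse cultures labelled as female germline stem cells (FGSCs). They are the phosphatase genes Dusp4, Dusp5 and Dusp6, the Sprouty genes Spry1, Spry2 and Spry4, the Spred genes Spred1 and Spred2, and the transcription factor genes Etv4 and Etv5. The members were listed by name and chosen by their role in ERK feedback and, in part, by the measured FPKM of Dusp6 and Etv5 in metformin against control libraries. Values of this contrast are therefore given for all members as a description without a test. All 10 were found by Ensembl identifier among the 55401 genes of the table. Of these, 8 had a mean of at least 1 FPKM (fragments counted on a gene, scaled for gene length and sequencing depth) and were among the 10661 genes that entered the fit. Dusp4 and Spry2 did not reach that level.

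The study compared 3 control libraries, from cultures without treatment, with 3 libraries from cultures given 1 μM metformin for 24 h. Both groups were cultures labelled as C57BL/6 FGSCs, past passage 20, grown on STO feeder cells, a mouse fibroblast line that was mitotically inactivated. The medium of both groups contained serum, leukemia inhibitory factor (LIF), epidermal growth factor (EGF), basic fibroblast growth factor (bFGF) and glial cell line-derived neurotrophic factor (GDNF). Nothing in the labels says whether the 3 libraries of a group came from separate cultures, so the spread between them may be technical.

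Growth factor receptors act through Ras, Raf and MEK on the ERK kinases. Active ERK enters the nucleus and, through ETS and other factors, induces genes that restrain the same cascade, so that their transcripts are widely used as a readout of its output. DUSP4 and DUSP5 are nuclear phosphatases that act on MAP kinases, and DUSP6 is a cytoplasmic phosphatase specific for ERK. Sprouty proteins block signaling between receptors and Raf, and SPRED proteins do so together with neurofibromin. ETV4 and ETV5 are ETS transcription factors of the PEA3 group that carry the signal onward. In spermatogonial stem cells, Etv5 is a known target of GDNF.

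Short stretches of promoter are shown for members whose windows held a match to a motif of an ERK-responsive factor. The stretches shown lie wholly upstream of the RefSeq start. The windows covered 250 bases before to 50 bases after a gene start in RefSeq for GRCm38.p6. They were at hand for 8 starts of 7 members, namely Dusp5, Dusp6, Spry1, Spry2, Spred1, Spred2 and Etv5, which had 2. Letters in capitals mark the CArG boxes, the binding motif of serum response factor (SRF), in Dusp5 and the PEA3 motif AGGAAG, on either strand, in Dusp6 and Spred2.
Dusp5 (chr19:53529059-53529086, plus strand): atacCCATATTTGGCCTTATATGGgcac
Dusp6 (chr10:99263010-99263037, plus strand): tcttctttctcCTTCCTcccgccgagcc
Spred2, first match (chr11:19924338-19924365, plus strand): tggtcgcaagtAGGAAGctttttgcact
Spred2, second match (chr11:19924399-19924426, plus strand): cttccgccctaCTTCCTcctcctgttgg
The Dusp5 stretch, at positions -86 to -59 from the start, held 2 CArG boxes side by side. Of all 32851 promoter windows, 1.63% held a CArG box and 0.0183% held 2 or more. Among the 8 member windows, 1 held a CArG box, that of Dusp5. Several motifs were searched, so nothing is read from the rarity of this pair. The deposited gene positions start Spred2 at 19924375, so by them its second stretch lies inside the gene. The PEA3 motif was in 4 of the 8 member windows, those of Dusp5, Dusp6, Spred2 and 1 start of Etv5, and in 35.4% of all windows. The PEA3 match of Dusp5, at position -192, is not shown. Searched on both strands, the ETS motif CCGGAAG (8.86% of all windows), the Capicua motifs TGAATGAA (1.3%) and TGAATGGA (1.21%), the AP-1 motif TGAGTCA (5.2%) and the cAMP response element TGACGTCA (1.79%) were in none of the 8. Matches are letters in a window and do not show that a factor binds there.

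Depth, estimated from the step that 1 fragment makes in short single-exon genes, was 13400000 to 14000000 fragments per library. At this depth 3 fragments on 1 kb of exon, the smallest amount told from 0, were worth 0.214 to 0.224 FPKM, a limit that covers counting error only. Libraries of one group differed by 1.13 to 1.29 times the variance that counting alone gives, and a control and a metformin library by 1.22 to 1.55 times, over genes with 100 to 2000 fragments in a pair. The label was checked against marker genes in these libraries. The marker RT-PCR and MVH immunofluorescence that the study ran on its line were not analysed here. Of 15 germ cell markers, 10 were listed at 0 in all 6 libraries, among them Pou5f1, Dppa3, Dazl and Nanos3, and none reached a mean of 1 FPKM. Ifitm3, Dnd1 and Ddx4 had the highest means of that list. Blood cell markers were abundant, with 14 of 15 at a mean of at least 10 FPKM, led by Arhgdib, Coro1a and Lcp1. Their summed level was 1120 to 1130 FPKM in the control and 1140 to 1160 in the metformin libraries. The 18 feeder fibroblast markers summed to 1.63 to 2.04 FPKM in the control and 1.43 to 2.22 in the metformin libraries, led by Acta2, Fn1 and Dcn, with Lum at 0. Ovarian somatic markers, led by Star, Amh and Gata4, summed to at most 2.77 FPKM, with Foxl2, Fshr, Cyp19a1 and Inha at 0. The part of the blood cell markers in any result below was not tested.

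The feedback genes were present at moderate levels, and their order by FPKM, which is per length, was almost the same in both groups. In the control group Etv5 was highest at 19.1 ± 0.503 FPKM (SD, n = 3) and Dusp6 next at 18.0 ± 0.295. Etv4, Spred1 and Spred2 followed at 15.5 ± 0.473, 15.2 ± 0.287 and 15.1 ± 0.443 FPKM, and the ranges of their libraries overlapped. Dusp5 was at 12.0 ± 0.246 FPKM, below all of these. Spry1 and Spry4, at 4.32 ± 0.154 and 3.70 ± 0.124 FPKM, formed a lower tier, and Spry2 and Dusp4, at 0.370 ± 0.115 and 0.230 ± 0.0872 FPKM, overlapped at the bottom. With metformin, Etv4 stood clear of Spred1 and Spred2, whereas the ranges of Spry1 and Spry4 met. Etv5 and Dusp6 ranked at percentiles 72.5 and 70.9 of mean FPKM among all tested genes, and Spry4 at percentile 26.0.

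**Figure D1:**
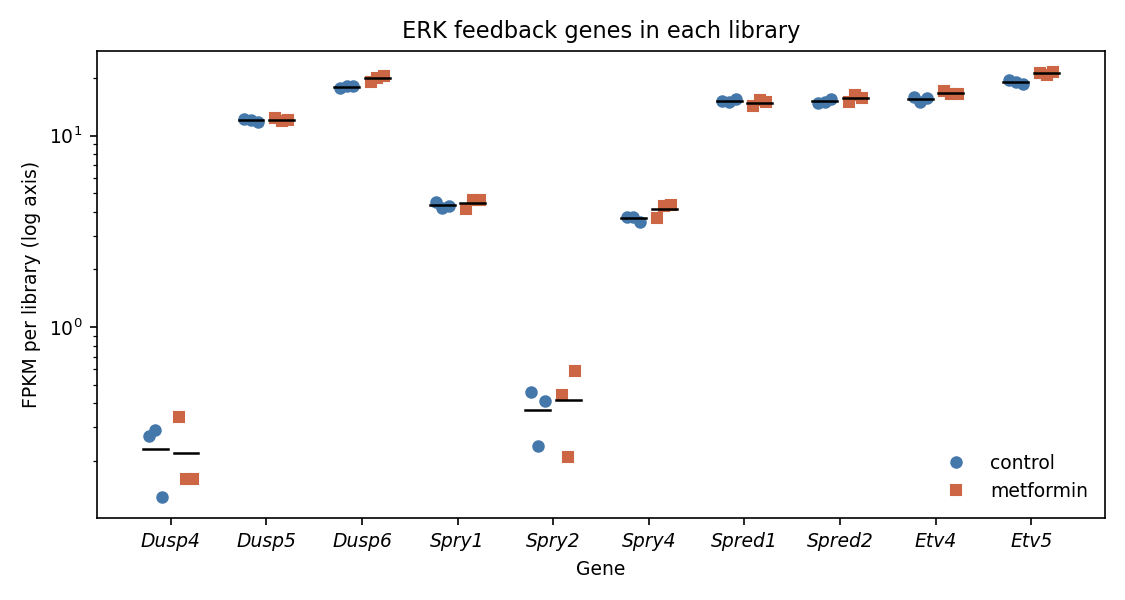
FPKM of the 10 feedback genes in each library on a log axis, with control libraries as circles, metformin libraries as squares and the mean of each group (n = 3) as a line. Etv5, Dusp6 and Etv4 are the genes whose metformin libraries all lie above their control libraries, and Dusp4 and Spry2 lie below 1 FPKM.

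Among the phosphatases, Dusp6 was higher with metformin and Dusp5 was nearly level. Dusp6 (chromosome 10, 99263231 to 99267489, GRCm38) had 17.67, 18.16 and 18.2 FPKM in control replicates 1 to 3 and 19.09, 20.08 and 20.52 FPKM in metformin replicates 1 to 3. All metformin libraries lay above all control libraries. The metformin mean was 19.9 ± 0.732 FPKM (SD, n = 3), 10.5% above the control, and the log2 fold change was 0.14 (standard error 0.04). Dusp5 (chromosome 19, 53529109 to 53542431), the gene with paired CArG boxes shown above, had 12.22, 12.07 and 11.74 FPKM in the control and 12.39, 11.98 and 12.04 FPKM in the metformin libraries. These groups overlapped, and their means differed by 1.05% (log2 fold change 0.01, standard error 0.03). Dusp4 (chromosome 8, 34807297 to 34819894) had 0.27, 0.29 and 0.13 FPKM in the control and 0.34, 0.16 and 0.16 FPKM in the metformin libraries. With about 5 to 13 fragments per library, by the exon length of an older annotation, a difference in Dusp4 was not detectable at this depth. In bulk libraries a change in the share of cells that express a gene and a change in RNA per cell cannot be told apart.

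The Sprouty genes, inhibitors upstream of Raf, gave overlapping groups. Spry4 (chromosome 18, 38586247 to 38601415) had 3.77, 3.78 and 3.56 FPKM in the control and 3.73, 4.29 and 4.36 FPKM in the metformin libraries. Metformin replicates 2 and 3 were above every control library and replicate 1 was within their range. The mean was 11.4% above the control, with a log2 fold change of 0.12 (standard error 0.06). Spry1 (chromosome 3, 37639947 to 37644598) had 4.49, 4.19 and 4.28 FPKM in the control and 4.14, 4.63 and 4.61 FPKM in the metformin libraries, and metformin replicate 1 was below the control range and the others above it. Its log2 fold change was 0.04 (standard error 0.06). Spry2 (chromosome 14, 105891947 to 105896819) had 0.46, 0.24 and 0.41 FPKM in the control and 0.44, 0.21 and 0.59 FPKM in the metformin libraries, or about 6 to 17 fragments per library. Its values scattered as widely within a group as between groups.

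Spred1 and Spred2, whose products bind neurofibromin, differed little. Spred2 (chromosome 11, 19924375 to 20024026) had 14.84, 14.91 and 15.64 FPKM in the control and 15.02, 16.25 and 15.78 FPKM in the metformin libraries. Metformin replicates 2 and 3 were above the control range and replicate 1 inside it, with a log2 fold change of 0.05 (standard error 0.04). Spred1 (chromosome 2, 117121374 to 117182279) had 15.12, 14.99 and 15.54 FPKM in the control and 14.27, 15.39 and 15.05 FPKM in the metformin libraries. It was the only tested member with a lower mean in the metformin group, by a log2 fold change of -0.03 (standard error 0.04) that was 0.0004 without metformin replicate 1, and no metformin library was above the control range.

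Both PEA3 factors were higher with metformin. Etv5 (chromosome 16, 22381309 to 22439719) had 19.62, 18.97 and 18.63 FPKM in the control and 21.2, 20.76 and 21.52 FPKM in the metformin libraries. The groups did not overlap, the metformin mean was 21.2 ± 0.382 FPKM (SD, n = 3), 10.9% above the control, and the log2 fold change was 0.14 (standard error 0.03). Etv4 (chromosome 11, 101769742 to 101785371) had 15.89, 14.99 and 15.69 FPKM in the control and 17.1, 16.53 and 16.48 FPKM in the metformin libraries. Its groups did not overlap either, with a metformin mean of 16.7 ± 0.344 FPKM (SD, n = 3) and a log2 fold change of 0.10 (standard error 0.03). Summed over the pair, FPKM was 34.0 to 35.5 in the control and 37.3 to 38.3 in the metformin libraries. The third PEA3 gene, Etv1, had at most 0.02 FPKM in any library.

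Counted together, 3 of the 8 tested members, Dusp6, Etv4 and Etv5, had every metformin library above every control library, as did 8.89% of all tested genes. None of the 8 had every metformin library below, against 8.1% of all. The mean was higher with metformin for 7 of 8, against 52.3% of all tested genes. The median log2 fold change of the 8 was 0.07 and that of all tested genes 0.0041. Since this contrast helped to choose the members, nothing is read from these counts. In limma, with p-values adjusted by Benjamini-Hochberg over all tested genes, 3 genes (0.0281%) passed the threshold of 0.05. They were Trib3, Chac1 and Ddit3, which belong to the stress response driven by ATF4, and had log2 fold changes of 0.74 to 1.18.

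**Figure D2:**
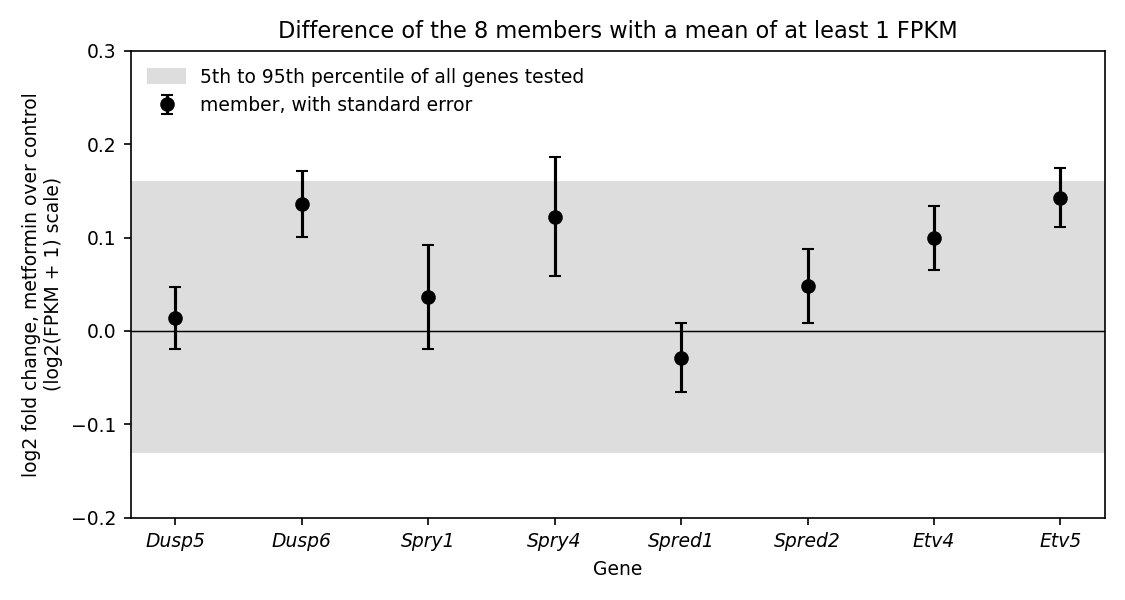
Log2 fold change of metformin over control on the log2(FPKM + 1) scale for the 8 members with a mean of at least 1 FPKM, with standard errors (n = 3 per group). Dusp6 and Etv5 at 0.14 lie inside the grey band, which spans the 5th to 95th percentile of all tested genes, -0.13 to 0.16.

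Placed among all 10661 tested genes, the log2 fold changes of Etv5, Dusp6, Spry4 and Etv4 were at percentiles 94.2, 93.7, 92.1 and 88.5, and that of Spred1 at percentile 31.7. Those of Spred2, Spry1 and Dusp5 were at percentiles 72.8, 67.4 and 55.5. The same contrast helped to choose the members, so nothing is read from these ranks. Estimated fragments per library were 662 to 792 for Dusp6, 1070 to 1218 for Etv5 and 642 to 743 for Etv4. Counting alone then gives a coefficient of variation of 3.69%, 2.96% and 3.80% per library. Between control libraries the coefficients were 1.64%, 2.64% and 3.04%, no larger than counting error. Metformin replicate 1 was the lowest of its group for 5 of the 8 tested members, and without it 6 of 8 had every metformin library above every control library, against 14.3% of all tested genes. The 3 that joined were Spry1, Spry4 and Spred2. With any other single library left out the number was 3 or 4, against 13.8% to 14.7% of all tested genes. Metformin replicate 1 was singled out for its low values, and this contrast helped to choose the members. Nothing is therefore read from the count of 6. Genes on the opposite strand overlap Dusp5, Spry1 and Spry4 over 71 to 710 bp. Their means were at most 0.17 FPKM, and their part in the values of these members was not tested.

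Genes most like Dusp6 over the 6 libraries, by Pearson correlation of log2(FPKM + 1), were Itgb7 (r = 0.9932), Ilkap (r = 0.9926) and Fam53c (r = 0.9885). For Etv5 they were H2afy (r = 0.9974), Ank (r = 0.9925) and Tubb5 (r = 0.9891). With 6 libraries, 144 genes had r above 0.9 with Dusp6 and 167 with Etv5. Dusp6 and Etv5 had r = 0.82 with each other, and Dusp6 had r = 0.87 with Spry4 and r = -0.03 with Dusp5. These values share the libraries, their depth and the group difference, and describe these libraries only.

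Receptors that start the cascade were compared as levels, to see which could be read at all. Of 12 genes for receptors of the factors in the medium, only Il6st, the shared gp130 subunit of the LIF receptor, had a mean of at least 1 FPKM, with 1.39 ± 0.0551 FPKM in the control and 1.25 ± 0.130 with metformin (SD, n = 3 each; adjusted p = 0.739, limma). Egfr, the receptor for EGF, and Gfra1, the co-receptor for GDNF, were listed at 0 in all 6 libraries, where 3 fragments would be worth up to 0.0198 and 0.0409 FPKM. Ret, which signals for GDNF, had 0.01 to 0.12 FPKM and Lifr, the LIF-binding subunit, at most 0.03 FPKM. Among the FGF receptors, Fgfr3 was highest with 0.35 to 0.46 FPKM, and Fgfr1, Fgfr2 and Fgfr4 had at most 0.15 FPKM. Erbb2, Erbb3 and Erbb4, partners of Egfr, had at most 0.14 FPKM.

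Some haematopoietic receptors that also feed Ras and ERK were far more abundant, with 5 of 12 listed at a mean of at least 10 FPKM. Kit, the receptor for stem cell factor, had 118 ± 1.25 FPKM in the control and 118 ± 1.30 with metformin (SD, n = 3 each). Csf2rb, the beta subunit shared by the receptors for IL-3, IL-5 and GM-CSF, had 147 ± 3.74 and 145 ± 1.07 FPKM, and Csf2rb2, the beta subunit specific for IL-3, 129 ± 4.14 and 129 ± 0.993 FPKM. Their partner subunit genes Csf2ra and Il3ra were low, with means of 0.693 and 0.990 FPKM in the control and 0.780 and 1.17 with metformin. Il1rl1, the receptor for IL-33, was at 32.6 ± 0.774 and 33.0 ± 1.33 FPKM. Csf1r, Csf3r, Flt3 and Fcer1a had at most 0.04 FPKM. None of the 6 tested receptors of this list had an unadjusted p under 0.05 (limma), against 10.8% of all tested genes. Their median log2 fold change was 0.01, between 0.0018 (without metformin replicate 2) and 0.024 (without metformin replicate 3) with a library left out. Il3ra had a control mean under 1 FPKM and passed the filter only through its metformin libraries. With the filter raised to 10 FPKM, which leaves Il3ra out, the median was 0.0034.

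**Figure D3:**
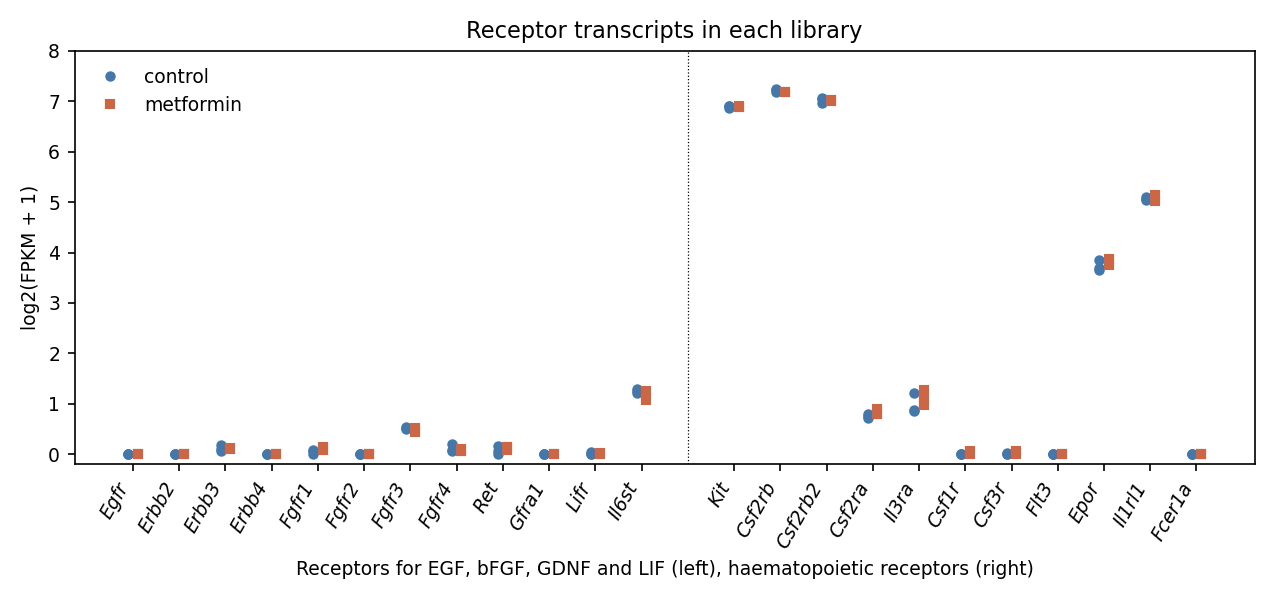
Level of receptor transcripts as log2(FPKM + 1) in each control (circle) and metformin (square) library, with receptors for the medium factors on the left and haematopoietic receptors on the right. Kit, Csf2rb and Csf2rb2 lie near 7 in all 6 libraries, whereas Egfr and Gfra1 are listed at 0.

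The other members of the same families were looked up in the same fit. Among the remaining MAP kinase phosphatases, Dusp2, a nuclear enzyme induced by mitogens, had 6.70, 6.55 and 6.03 FPKM in the control and 7.47, 7.47 and 7.20 FPKM in the metformin libraries. Its groups did not overlap, with a log2 fold change of 0.18 (standard error 0.05) and adjusted p = 0.346 from limma. Dusp7, the cytoplasmic relative of Dusp6, went from 9.77 ± 0.482 to 10.2 ± 0.345 FPKM (SD, n = 3 each; adjusted p = 0.683, limma), and Dusp16, which acts on JNK and p38, from 3.65 ± 0.0153 to 3.63 ± 0.259 FPKM. Dusp1 had 0.82 to 0.92 FPKM in the control and 0.93 to 0.98 with metformin, just under the level for testing. Dusp10, another phosphatase for JNK and p38, had 0.45 to 0.74 FPKM, Dusp8 at most 0.04 and Dusp9 was listed at 0. Spred3 had 1.93, 1.99 and 2.13 FPKM in the control and 1.86, 1.76 and 1.72 FPKM in the metformin libraries, with adjusted p = 0.565 from limma. Its groups did not overlap either, in the lower direction. Of all tested genes, 8.89% had every metformin library above every control library and 8.1% had every one below. Spry3 was not analysed here.

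Of 24 listed genes of the core cascade from Grb2 to ERK 20 were tested, with 12 higher, 8 lower and a median log2 fold change of 0.02. None passed the adjusted threshold in limma, and 3 had an unadjusted p under 0.05 in the higher and 1 in the lower direction, against 6.03% and 4.81% of all tested genes. Grb2, the adaptor that brings Sos to receptors, had 105 ± 2.12 FPKM in the control and 107 ± 1.14 with metformin, and Nras 67.5 ± 0.311 and 66.3 ± 1.02 FPKM (SD, n = 3 each). The genes with an unadjusted p under 0.05 were Hras, Ksr1, Gab2 and Shoc2. These were chosen after their values were seen. Hras and Ksr1, a scaffold of the cascade, had log2 fold changes of 0.12 and 0.13 (adjusted p = 0.320 and adjusted p = 0.346, limma). Gab2 had a log2 fold change of 0.16 (adjusted p = 0.394, limma), and its groups overlapped. Shoc2, which helps to activate Raf, had a log2 fold change of -0.16 (adjusted p = 0.346, limma). In this list groups did not overlap for 2 higher genes and 1 lower gene, against 8.89% and 8.1% of all tested genes. Gab1 and Ksr2 were listed at 0.

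Other inhibitors of Ras and ERK showed no common direction. Of 23 listed genes 19 were tested, 11 were higher and 8 lower, with a median log2 fold change of 0.03, which was -0.016 without control replicate 2 and -0.02 when the filter was raised to 10 FPKM. None passed the adjusted threshold in limma and 1 had an unadjusted p under 0.05, against 10.8% of all tested genes. This was Pea15a, which holds ERK in the cytoplasm (9.23 ± 0.683 to 10.5 ± 0.435 FPKM, SD, n = 3 each; adjusted p = 0.390, limma; singled out after its value was seen). Pebp1, which binds Raf, had 125 ± 3.99 and 127 ± 0.921 FPKM, Ppp2r1a, a scaffold subunit of phosphatase 2A, 78.9 ± 2.25 and 81.9 ± 1.98 FPKM, and Rasal3 20.7 ± 1.64 and 20.2 ± 0.668 FPKM. Nf1, the neurofibromin gene, had 3.65 ± 0.275 and 3.68 ± 0.207 FPKM. In this list groups did not overlap for 2 higher and 3 lower genes, against 8.89% and 8.1% of all tested genes.

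Transcripts downstream of ERK were read in lists that exclude the members. Of 15 delayed ERK targets 8 were tested, with 4 higher and 4 lower and a median log2 fold change of 0.02, which was -0.018 without the filter on low values and -0.024 without control replicate 3, -0.017 without metformin replicate 1 and -0.022 without metformin replicate 3. Ier3 had 53.9 ± 0.341 and 55.9 ± 0.822 FPKM, the cyclin gene Ccnd1 30.0 ± 0.961 and 29.0 ± 1.10, and Plaur, the urokinase receptor gene, 12.8 ± 1.10 and 14.3 ± 1.00 FPKM (SD, n = 3 each). None of the 8 had an unadjusted p under 0.05 in limma, against 10.8% of all tested genes. Groups did not overlap for 1 higher and 1 lower gene of the 8, against 8.89% and 8.1% of all tested genes. Of 20 immediate early genes 13 were tested, 12 of them higher, against 52.3% of all tested genes, with a median log2 fold change of 0.09. That median was 0.046 without metformin replicate 1 and 0.06 without control replicate 1. None passed the adjusted threshold in limma and 3 had an unadjusted p under 0.05, all higher, against 6.03% of all tested genes in that direction. These were Egr1, from 0.937 ± 0.0577 to 1.87 ± 0.241 FPKM (SD, n = 3 each; adjusted p = 0.243, limma), Ier2, from 20.2 ± 1.61 to 23.6 ± 1.03 FPKM, and Myc, from 173 ± 2.71 to 188 ± 2.06 FPKM, and these 3 had every metformin library above every control library, against 8.89% of all tested genes. Egr1 had a control mean under 1 FPKM and passed the filter only through its metformin libraries. Its place in these counts therefore follows in part from its rise. The lists were chosen with earlier results of these data known, so nothing is read from these counts. Egr1 and Ier2 were named with their values already known. Myc, Mcl1 and Jund had the highest levels of this list.

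Among genes listed for GDNF signaling in spermatogonial stem cells, not all of them known to be its targets, Etv5 stood apart in level. Of the 11 others listed, Bcl6b, Lhx1 and Nanos2 were listed at 0 in all 6 libraries, Cxcr4, Egr2 and Egr3 had at most 0.24 FPKM, and Zbtb16 alone reached a mean of 1 FPKM, with 1.08 ± 0.0850 in the control and 1.09 ± 0.167 with metformin (SD, n = 3 each).

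**Figure D4:**
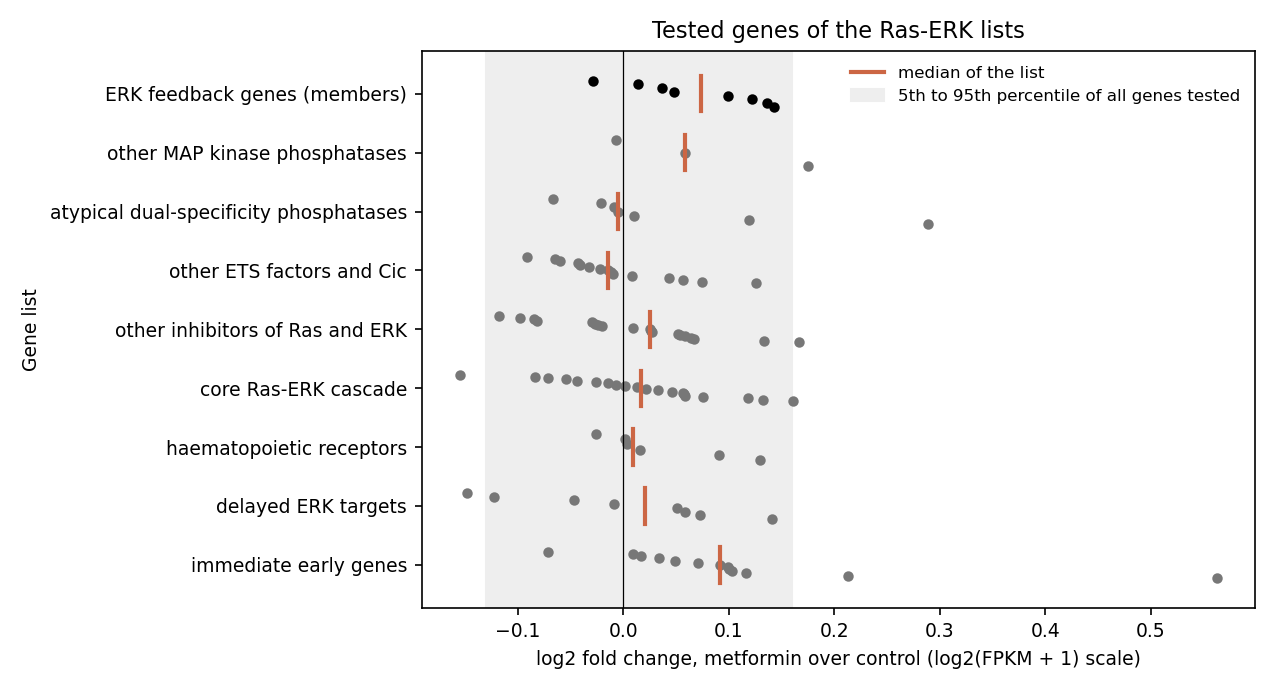
Log2 fold change of metformin over control for each tested gene (points) of the feedback genes and of 8 further Ras-ERK lists, with the median of each list as a bar and the 5th to 95th percentile of all tested genes, -0.13 to 0.16, in grey. The feedback genes have a median of 0.07 and the immediate early genes one of 0.09, with Egr1 farthest to the right at 0.56. Egr1 passed the filter only through its metformin libraries.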

How the data were processed

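RNA-seq was compared between 3 control libraries and 3 metformin libraries. Per library, the authors deposited 1 column of FPKM, rounded to 2 decimals and covering 55401 Ensembl genes. The labels name HISAT2, DESeq2 and mm9 without a role, yet both ends of 10 of 10 members lie within 1000 bp of those in RefSeq GRCm38.p6. Counter, annotation and use of strand are not given in the sources used here, and labels and paper name different library kits. FPKM hides counts, so values were fitted as log2(FPKM + 1), which understates changes of low genes, for genes whose mean reached 1 FPKM, with limma 3.58.1 (R 4.3.3, lmFit, eBayes with trend, two-sided, Benjamini-Hochberg over all 10661 genes, threshold 0.05, no block), tested on simulated data. Depth was estimated from single-exon genes under 400 bp, whose exon lengths, like those of the members, came from GENCODE M1. Of 222 list entries, 221 were matched.

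Members and lists were chosen with earlier results of these data known. Named genes were the members, their families, the receptors of the medium factors, the up to 3 genes with the highest means of each list, genes with an adjusted p under 0.05, genes of each marker list at 0, and 3 genes most like Dusp6 and Etv5. Values of 2 list genes are not reported here. No list was tested as a set. The alternatives were the pseudocount (0.1), the filter (none, or a mean of 10 FPKM), scaling to equal sums (TPM), median centring, no trend, the replicate block and each library left out in turn. Python 3.11.15 and matplotlib 3.10.9 were used.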

Additional observations from a re-analysis of the deposited data

How the results depend on the processing

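Under the other pseudocount, scaling and centring, the log2 fold change of Dusp6 was 0.132 to 0.142, of Etv5 0.138 to 0.149 and of Etv4 0.095 to 0.105, and the replicate block leaves fold changes as they are. With a library left out, that of Dusp6 ranged from 0.115 to 0.164, of Etv5 from 0.127 to 0.162 and of Etv4 from 0.076 to 0.116. Members with every metformin library above every control library numbered 3 to 6 with a library left out, 6 without metformin replicate 1 and 4 without control replicate 3. Of all tested genes, the share was 8.89% with all 6 libraries and 13.8% to 14.7% with a library left out. This contrast helped to choose the members, so nothing is read from these counts. Over all genes, 3 were higher and 0 lower at the adjusted threshold, and 643 were higher and 513 lower at an unadjusted p under 0.05 (limma). Without the filter 3 were lower, and with a library left out 0 to 1, with 1 lower gene without control replicate 3 or metformin replicate 3. Leaving libraries out gave list medians of -0.037 to 0.041 for atypical dual-specificity phosphatases, -0.031 to -0.0073 for other ETS factors, -0.016 to 0.051 for other inhibitors, -0.024 to 0.042 for delayed targets and 0.046 to 0.102 for immediate early genes. With the filter raised to 10 FPKM the medians were -0.02 for other inhibitors and 0.0013 for the core cascade, and without the filter -0.018 for delayed targets, with other genes entering or leaving each list. No gene of the pathway lists passed the adjusted threshold under any alternative.

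Deviations from the group mean had correlations of -0.0317 to 0.0479 for libraries with the same replicate number and -0.0504 to 0.03 for other pairs. Most of the spread within a group is counting error, so a modest shared batch could not show in these values. Whether libraries with the same number share a batch was not tested. With the replicate block, 2 genes were higher and 0 lower. Depth limits Dusp4 and Spry2, and FPKM allows no test on counts.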

Other observations

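Gene groups next to the feedback genes held no gene past the adjusted threshold. Of 15 atypical dual-specificity phosphatases 7 were tested, 3 higher and 4 lower, and none had an adjusted p under 0.05 in limma. Dusp11, Dusp3 and Dusp12 had the highest means, and Dusp21, Dusp26 and Dusp27 were listed at 0. At an unadjusted p under 0.05 in limma there was 1 gene of this list, Dusp28, against 10.8% of all tested genes. Dusp28, singled out after its values were seen, had 2.33, 2.59 and 2.23 FPKM in the control and 2.66, 3.10 and 3.69 FPKM in the metformin libraries (adjusted p = 0.390, limma). Of 18 listed genes, other ETS factors and the ERK-regulated repressor gene Cic, 15 were tested, 5 higher and 10 lower. None was past the adjusted threshold in limma. At an unadjusted p under 0.05 there was 1 in each direction, against 6.03% of all tested genes higher and 4.81% lower. Groups did not overlap for 1 higher and 2 lower genes of this list, against 8.89% and 8.1% of all tested genes. Fli1, Elf1 and Spi1, all active in blood cells, were the most abundant, with 38.4 ± 0.779, 33.3 ± 1.05 and 23.3 ± 0.282 FPKM in the control (SD, n = 3 each). Cic itself had 12.4 ± 0.209 FPKM in the control and 12.9 ± 0.340 with metformin.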
